A study of Homo sapiens with 6 samples.

Results

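To examine the YAP and TEAD pathway after CLGN knockdown, 10 genes were taken by name from the 58735 genes of the table: YAP1, WWTR1, TEAD1, CTGF, CYR61, ANKRD1, AMOTL2, AJUBA, LATS2 and AXL. They hold the coactivators of the pathway, 1 of its DNA-binding partners, a kinase and a scaffold protein that restrain the coactivators (LATS2 and AMOTL2), a scaffold that restrains the kinase (AJUBA), and 4 genes widely used as readouts of their activity. They were matched by name alone. RNA was sequenced from 6 libraries of Hep-G2, a human liver tumor line that the labels describe as HCC hepatocytes. Of these, 3 were sh-NC, labelled WT and shcontrol, and 3 were sh-CLGN, labelled CLGN knock down. According to the study's methods, a lentivirus delivered the hairpins and transduced cells were selected with puromycin, so both groups carry a hairpin vector and selection. There was 1 hairpin per group, so loss of CLGN and any other effect of that hairpin cannot be told apart. All libraries carried the same batch label, and nothing in the labels says that they came from separate cultures. P-values therefore measure the spread between these libraries, which may be technical.

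The Hippo pathway is a kinase relay that limits tissue growth. The kinases STK3 and STK4 activate LATS1 and LATS2, which phosphorylate the coactivators YAP1 and WWTR1 (TAZ) and so keep them out of the nucleus. Free of this phosphorylation, YAP1 and WWTR1 enter the nucleus and bind TEAD proteins, which recognize DNA and carry them to target genes. In liver the pathway is known for its control of organ size and of hepatocyte identity, and YAP1 is often active in HCC. Several targets, AMOTL2 and LATS2 among them, encode inhibitors of YAP1, which closes a feedback loop. The table gives mRNA levels. Neither the phosphorylation of YAP1 nor its place in the cell was measured.

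Libraries held 14955816 to 16244639 reads in genes. Levels are given as FPKM, the reads of a gene relative to its length and to the size of its library. CLGN, which encodes the endoplasmic reticulum chaperone calmegin, was at 24.1, 21.0 and 26.1 FPKM in sh-NC and at 9.48, 8.88 and 8.60 FPKM in sh-CLGN. It fell to 37.8% of the sh-NC mean (limma log2 fold change -1.31, SE 0.081, adjusted p = 8.35e-06). Libraries of the same group had Pearson correlations of 0.988 to 0.992 across genes, and libraries of different groups 0.937 to 0.945. Markers of Hep-G2 and hepatocytes such as AFP and ALB were abundant in every library, with a sum over 8 genes of 6365 to 6648 FPKM in sh-NC libraries and of 6640 to 7095 FPKM in sh-CLGN libraries. Single markers moved both ways, 3 called higher (AFP, TTR and FGB) and 4 lower, beside 26.7% and 39.0% of all genes tested. ALB fell to 53.6% and TF to 32.2% of sh-NC, and APOB and HNF4A fell to 80.0% and 81.1%.

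To show the DNA behind the target genes, RefSeq promoters on GRCh38.p14 were searched for the letters GGAATG, the core that TEAD proteins recognize, on either strand (CATTCC on the other). A promoter here is the 250 bases before and the 50 bases after a gene's start. Of 35116 promoters, 14.0% held at least 1 match, 1.37% at least 2 and 0.128% at least 3. Entries were found for 8 of the 10 genes, all but CYR61 and TEAD1, and 7 of the 8 had a match in at least 1 of their entries. These 8 genes had 12 entries, so this count by gene is not on the scale of the shares over single promoters. CTGF had 3 matches, at 169, 104 and 95 bases before its start, and ANKRD1 had 2, at 220 and 128 bases before its start. AMOTL2 and AJUBA each had 1 match, at 69 and 59 bases before an alternative start inside the gene, and none at their other start. YAP1 had 1 match at 162 bases before its start, AXL 1 at 212 bases before an alternative start, LATS2 1 at 10 bases past its start, and WWTR1 none. The matches of YAP1, LATS2 and AXL are not printed. The stretches below, with matches in capitals, belong to ANKRD1, whose mRNA rose, and to CTGF, AMOTL2 and AJUBA, whose mRNA fell. They end at the base before the start and read 5′ to 3′ on the minus strand, from chr6:131951373-131951622 for CTGF, chr10:90921088-90921337 for ANKRD1, chr3:134374448-134374547 for AMOTL2 and chr14:22976843-22976942 for AJUBA. A match describes the letters only, and binding was not measured.
CTGF: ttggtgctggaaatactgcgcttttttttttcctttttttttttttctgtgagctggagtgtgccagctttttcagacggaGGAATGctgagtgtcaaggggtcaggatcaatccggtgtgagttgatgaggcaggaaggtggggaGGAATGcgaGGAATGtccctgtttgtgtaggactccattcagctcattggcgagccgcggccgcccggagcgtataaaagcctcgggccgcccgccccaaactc
ANKRD1: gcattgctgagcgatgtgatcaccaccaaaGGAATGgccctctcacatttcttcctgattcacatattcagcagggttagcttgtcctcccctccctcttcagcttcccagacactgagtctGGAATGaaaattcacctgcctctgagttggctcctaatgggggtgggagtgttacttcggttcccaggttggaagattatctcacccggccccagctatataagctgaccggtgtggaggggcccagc
AMOTL2: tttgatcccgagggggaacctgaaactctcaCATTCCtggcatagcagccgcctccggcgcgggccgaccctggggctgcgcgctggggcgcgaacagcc
AJUBA: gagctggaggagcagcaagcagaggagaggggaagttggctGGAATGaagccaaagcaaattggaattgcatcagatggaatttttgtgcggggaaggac

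Of the 10 genes, 9 passed the filter of at least 1 FPKM in at least 3 libraries and were tested with limma on log2(FPKM + 1), all but AXL. The threshold was 0.05 for the p adjusted over all 13074 genes tested. YAP1, CYR61 and ANKRD1 rose, while CTGF, AMOTL2, AJUBA and LATS2 fell, and WWTR1 and TEAD1 were not called. In such bulk libraries fewer cells of a type and less RNA per cell cannot be told apart. The 3 called higher stand beside 26.7% of all genes tested, and the 4 called lower beside 39.0%. In all 65.8% of genes were called, so the count of 7 among 9 does not set these genes apart. When a log2 change of 1 or more in size was also asked for, which 6.28% of genes reached, ANKRD1 was called higher (3.09% of genes) and AJUBA lower (3.19% of genes). The median log2 fold change of the 9 was -0.15, against -0.08 over all genes tested. In 7 of the 9 the 3 libraries of one group did not overlap the 3 of the other, as in 70.2% of all genes tested (28.7% higher and 41.5% lower in sh-CLGN).

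**Figure D1:**
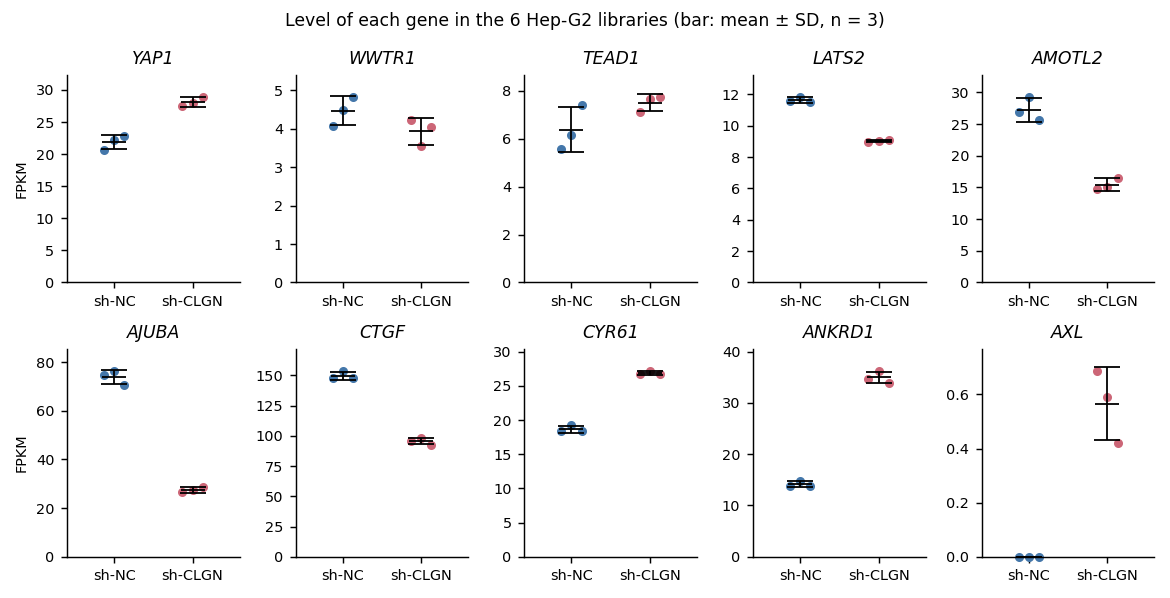
The level in FPKM of each of the 10 genes (y axes, each with its own range from 0) in the 3 sh-NC libraries (blue points) and the 3 sh-CLGN libraries (red points), with bars for the mean and SD of each group. The groups are apart for all genes but WWTR1 and TEAD1, with YAP1, CYR61, ANKRD1 and AXL higher in sh-CLGN and LATS2, AMOTL2, AJUBA and CTGF lower.

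In sh-NC the mean levels ran from CTGF (149.8 FPKM) over AJUBA (73.9), AMOTL2 (27.2), YAP1 (21.9), CYR61 (18.7), ANKRD1 (14.1), LATS2 (11.6) and TEAD1 (6.38) to WWTR1 (4.47 FPKM), and no neighbours in that order overlapped between libraries. AXL had no read. In sh-CLGN, CTGF was again at the top (95.7 FPKM), but ANKRD1 (34.9 FPKM) came next. YAP1 (28.1 FPKM) and CYR61 (26.9 FPKM) came after it, with all YAP1 libraries above all CYR61 libraries, and AJUBA (27.5 FPKM) overlapped both of them. AMOTL2 (15.4), LATS2 (9.03), TEAD1 (7.51), WWTR1 (3.94) and AXL (0.566 FPKM) followed without overlap. Thus AJUBA and AMOTL2 lost places and ANKRD1 gained them.

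YAP1 and WWTR1 are the coactivators themselves. YAP1 (chr11:102110461-102233423, plus strand) was at 20.7, 22.2 and 22.7 FPKM in sh-NC and at 27.4, 27.9 and 28.9 FPKM in sh-CLGN. Each sh-CLGN library was above each sh-NC library, and the mean rose 1.28-fold, from 21.9 ± 1.05 to 28.1 ± 0.768 (SD, n = 3 libraries per group). The log2 fold change was 0.35 (SE 0.052, limma adjusted p = 0.000651). WWTR1 (chr3:149517235-149736714, minus strand) was at 4.08, 4.49 and 4.83 FPKM in sh-NC and at 4.22, 3.55 and 4.04 FPKM in sh-CLGN. The groups overlapped, and the log2 fold change of -0.15 had a 95% interval of -0.34 to 0.04 (limma adjusted p = 0.140). The sign of that value turned with the scaling, to 0.0090 when libraries were scaled by their read totals. With a trend on GC content removed WWTR1 was called lower, at -0.30, which made 5 of the 10 genes lower. YAP1 mRNA was the more abundant of the pair, with a ratio to WWTR1 of 4.91 ± 0.187 in sh-NC and 7.18 ± 0.682 in sh-CLGN. The ratios did not overlap between groups (two-sided exact permutation p = 0.1, the smallest that 3 against 3 libraries allow).

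The TEAD proteins bind DNA for the coactivators, and the VGLL proteins compete for the same surface of TEAD. TEAD1 (chr11:12674591-12944483, plus strand) was at 5.57, 6.16 and 7.40 FPKM in sh-NC and at 7.12, 7.66 and 7.75 FPKM in sh-CLGN. The highest sh-NC library, replicate 3, lay inside the range of sh-CLGN. The log2 fold change was 0.21 (SE 0.092, 95% interval -0.0013 to 0.43, limma adjusted p = 0.0737). This result depended on the processing. It was smaller and not called with the GC trend removed (0.077) or without sh-NC replicate 1 (0.13). TEAD1 was called higher without sh-NC replicate 3, at 0.31, and likewise after scaling to TPM, to read totals or by quantiles and with voom on reads, at 0.24 to 0.38.

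The other 3 TEAD genes fell together. TEAD2 went from 11.2 ± 0.460 to 8.48 ± 0.200 FPKM, TEAD3 from 12.5 ± 0.695 to 9.50 ± 0.474 FPKM and TEAD4 from 18.2 ± 0.179 to 14.3 ± 0.190 FPKM. Their log2 fold changes were -0.36, -0.36 and -0.33, with limma adjusted p of 0.000595, 0.00118 and 0.000349. Scaled by read totals these values shrank to -0.18, -0.18 and -0.15 and with the GC trend removed to -0.22, -0.22 and -0.18, still called lower. The call of TEAD4 was lost under quantile normalization, at -0.12. Summed over the 4 genes, TEAD mRNA was at 47.9 to 48.8 FPKM in the sh-NC libraries and at 38.7 to 40.4 FPKM in the sh-CLGN libraries. TEAD1 made up 13.2 ± 2.01% of that sum in sh-NC and 18.9 ± 0.419% in sh-CLGN, ranges that did not overlap. VGLL4, the family's known repressor of YAP1 activity, was at 5.20 ± 0.296 FPKM in sh-NC and at 5.16 ± 0.495 FPKM in sh-CLGN. Its log2 fold change of -0.01 had a 95% interval of -0.19 to 0.17 and a sign that turned with the scaling (0.15 with read totals). VGLL1 and VGLL2 had no read in any library, and VGLL3 had 18 to 55 reads and was not tested. Of the 8 TEAD and VGLL genes 5 were tested, 0 were called higher and 3 lower by limma, beside 26.7% and 39.0% of all genes tested. Without adjustment for the number of genes the count of higher genes was also 0 at the threshold of 0.05. At other scalings and in the test on reads 1 was called higher, which was TEAD1. The lower count was 2 under quantile normalization. It was 4 with voom on all genes of 10 reads or more, where VGLL3 was called lower as well, at -0.81.

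LATS2 (chr13:20973032-21061547, minus strand) encodes a kinase that phosphorylates YAP1 and is itself a YAP1 target. It was at 11.6, 11.8 and 11.5 FPKM in sh-NC and at 8.95, 9.03 and 9.12 FPKM in sh-CLGN, with all sh-CLGN libraries lower. The mean fell from 11.6 ± 0.191 to 9.03 ± 0.0827 FPKM, to 77.7% of sh-NC (log2 fold change -0.33, SE 0.047, limma adjusted p = 0.000470). Its paralog LATS1 fell as well, from 5.75 ± 0.689 to 3.74 ± 0.393 FPKM (log2 fold change -0.51, SE 0.094, limma adjusted p = 0.00184). The ratio of LATS2 to LATS1 was 2.04 ± 0.274 in sh-NC and 2.44 ± 0.239 in sh-CLGN and overlapped between groups (two-sided exact permutation p = 0.2).

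Across the 13 genes of the Hippo kinase relay, LATS2 included, 3 were called higher, 4 lower and 6 were not called. With 26.7% and 39.0% of all genes tested called higher and lower, these counts do not set the relay apart. STK4 (MST1), which acts above LATS1 and LATS2, fell from 13.3 ± 1.07 to 9.34 ± 0.177 FPKM (log2 fold change -0.47). TAOK1, which can activate STK3 and STK4, rose 1.88-fold from 5.71 ± 0.671 to 10.7 ± 0.763 FPKM (log2 fold change 0.81), and TAOK2 fell (-0.28). The LATS relative STK38L and MOB1B, a cofactor of LATS kinases, rose as well (0.55 and 0.45). STK3, SAV1, MOB1A, MAP4K4, TAOK3 and STK38 were not called, with log2 fold changes between -0.11 and 0.20. These 6 are named because the count was small, after their values were seen. STK3 (0.943 and 1.24 FPKM) passed the filter through sh-CLGN alone, and its groups did not overlap. With voom on all genes of 10 reads or more it was called higher, at 0.39. The call of TAOK2 was lost with TPM, read totals, quantiles or the correction for GC content, and that of MOB1B with the GC correction.

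**Figure D2:**
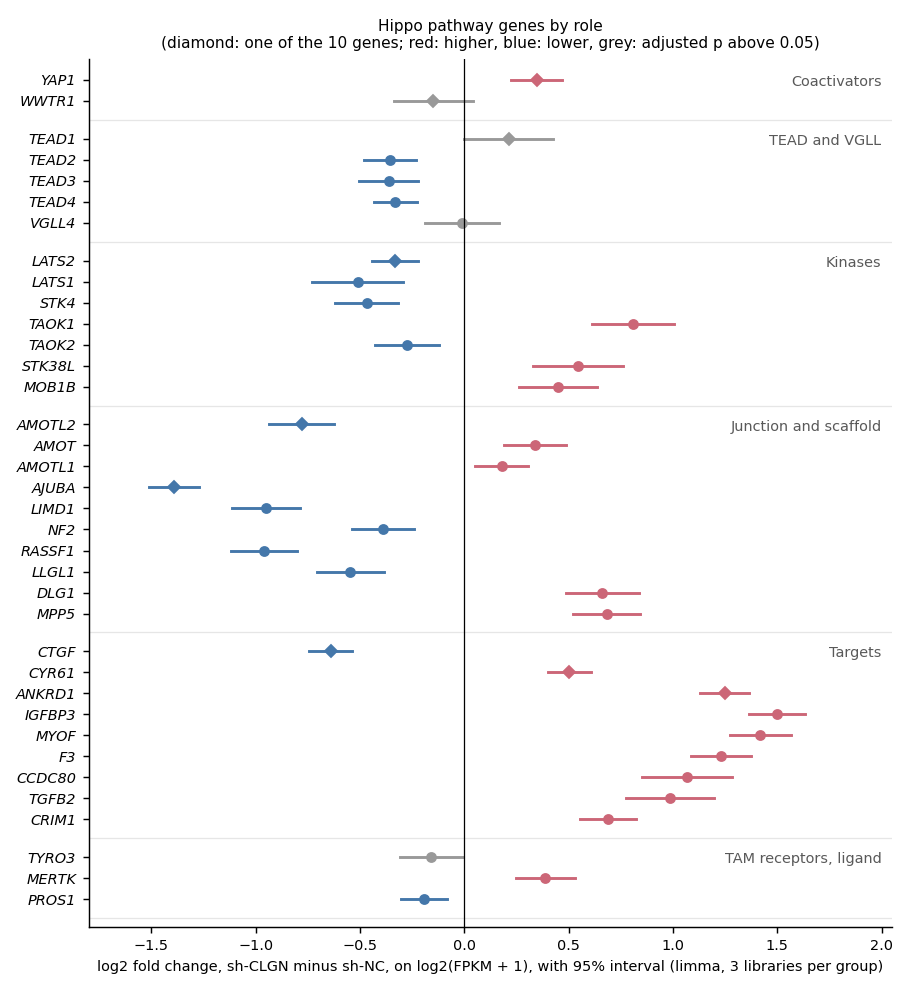
The log2 fold change of sh-CLGN against sh-NC on the log2(FPKM + 1) scale (x axis) for pathway genes grouped by role (y axis), with 95% intervals from limma on 3 libraries per group. Diamonds mark genes of the set of 10, red stands for higher, blue for lower and grey for an adjusted p above 0.05. AJUBA at -1.39 lies farthest to the left and IGFBP3 at 1.50 farthest to the right.

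AMOTL2 and AJUBA are scaffolds with opposite known effects on YAP1. Angiomotin proteins such as AMOTL2 hold YAP1 at cell junctions and on actin. AMOTL2 (chr3:134355874-134375479, minus strand) was at 26.8, 29.3 and 25.6 FPKM in sh-NC and at 14.8, 15.0 and 16.6 FPKM in sh-CLGN. All sh-CLGN libraries were lower, and the mean fell to 56.7% of sh-NC, from 27.2 ± 1.88 to 15.4 ± 0.960 FPKM (log2 fold change -0.78, SE 0.067, limma adjusted p = 3.75e-05). The other family members went the opposite way. AMOT rose from 3.76 ± 0.256 to 5.01 ± 0.107 FPKM (0.34, limma adjusted p = 0.00209) and AMOTL1 from 5.21 ± 0.0540 to 6.03 ± 0.214 FPKM (0.18, limma adjusted p = 0.0200). The call of AMOTL1 was lost without sh-CLGN replicate 2 (0.17) or replicate 3 (0.17). AMOTL2 accounted for 75.2 ± 1.70% of the family's FPKM in sh-NC and for 58.3 ± 1.35% in sh-CLGN, without overlap between libraries.

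AJUBA encodes a LIM-domain scaffold that binds LATS kinases and limits their action on YAP1. AJUBA (chr14:22971174-22982642, minus strand) was at 74.6, 76.3 and 70.7 FPKM in sh-NC and at 26.5, 27.3 and 28.7 FPKM in sh-CLGN. The groups were far apart, the lowest sh-NC library lying above 70 FPKM and the highest sh-CLGN library below 29. The mean fell from 73.9 ± 2.88 to 27.5 ± 1.15 FPKM, to 37.2% of sh-NC (log2 fold change -1.39, SE 0.052, limma adjusted p = 1.38e-06). In the order of all 13074 fold changes it stood at place 86 from the lowest. LIMD1, a relative that also binds LATS kinases, fell from 9.25 ± 0.757 to 4.30 ± 0.187 FPKM (-0.95, limma adjusted p = 1.85e-05). The third relative, WTIP, was under the filter and had 0.550 ± 0.0644 FPKM in sh-NC and 1.05 ± 0.0651 FPKM in sh-CLGN. AJUBA held 88.3 ± 0.845% of the summed FPKM of the 3 genes in sh-NC and 83.7 ± 0.326% in sh-CLGN. A protein-coding gene that shares its strand and locus had no read in any library.

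**Figure D3:**
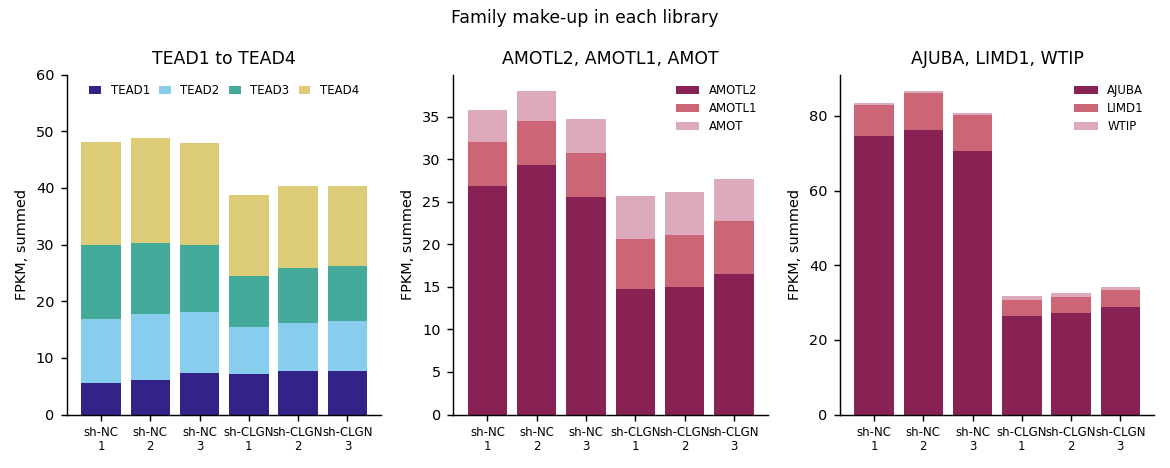
Summed FPKM (y axes, from 0) in each of the 6 libraries (x axes) for the TEAD, angiomotin and AJUBA families, with each gene as a layer of its bar. The TEAD bars stand at 47.9 to 48.8 FPKM in sh-NC and at 38.7 to 40.4 FPKM in sh-CLGN, while the layers of AMOTL2 and AJUBA shrink to 56.7% and 37.2% of their sh-NC means.

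Other genes that act above LATS1 and LATS2, at junctions and in cell polarity, moved both ways. Of 22 such genes, AMOTL2 and AJUBA included, 19 were tested, 7 were called higher and 8 lower. Without these 2, the counts were 7 and 6 of 17, and 6 and 6 of 16 without FAT4, which passed the filter through sh-CLGN alone. The shares over all genes tested were 26.7% and 39.0%, so these counts too stay near the background. RASSF1, a scaffold that binds STK3 and STK4, fell to 47.3% of sh-NC, from 12.5 ± 1.04 to 5.91 ± 0.206 FPKM (log2 fold change -0.96). NF2 (merlin), which brings LATS kinases to the membrane, fell from 15.9 ± 0.741 to 11.9 ± 0.853 FPKM (-0.39), and the polarity gene LLGL1 fell from 9.12 ± 0.800 to 5.91 ± 0.0646 FPKM (-0.55). The polarity scaffolds MPP5 (PALS1) and DLG1 rose 1.77-fold and 1.69-fold (0.68 and 0.66).

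CTGF, CYR61 and ANKRD1 are the targets most often measured as a readout of YAP1, and they did not move as one. CTGF (chr6:131948176-131951373, minus strand), a secreted matricellular protein with 3 TEAD-type matches in its promoter, was at 148, 154 and 148 FPKM in sh-NC and at 96.1, 98.1 and 92.8 FPKM in sh-CLGN. All sh-CLGN libraries were lower, and the mean fell to 63.9% of sh-NC, from 149.8 ± 3.29 to 95.7 ± 2.70 FPKM (log2 fold change -0.64, SE 0.045, limma adjusted p = 1.43e-05). CYR61 (chr1:85580761-85583962, plus strand), the closely related secreted protein of the CCN family, was at 18.3, 19.2 and 18.4 FPKM in sh-NC and at 26.7, 27.2 and 26.7 FPKM in sh-CLGN. All sh-CLGN libraries were higher, and the mean rose 1.44-fold, from 18.7 ± 0.495 to 26.9 ± 0.261 FPKM (log2 fold change 0.50, SE 0.045, limma adjusted p = 4.33e-05).

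ANKRD1 (chr10:90912096-90921276, minus strand), an ankyrin repeat protein first known from heart muscle, was at 13.8, 14.8 and 13.8 FPKM in sh-NC and at 34.7, 36.2 and 34.0 FPKM in sh-CLGN. All sh-CLGN libraries were higher, and the mean rose 2.47-fold, from 14.1 ± 0.581 to 34.9 ± 1.14 FPKM (log2 fold change 1.25, SE 0.051, limma adjusted p = 2.00e-06). It stood at place 185 from the highest fold change. The ratio of CTGF to CYR61 was 7.99 to 8.07 in the sh-NC libraries and 3.48 to 3.61 in the sh-CLGN libraries. That of CTGF to ANKRD1 was 10.4 to 10.7 and 2.71 to 2.77. Neither ratio overlapped between groups (two-sided exact permutation p = 0.1 for each, the smallest possible), and ratios within a library do not depend on its scaling. Of the relatives of these genes, NOV had no read in sh-NC against 3 to 5 in sh-CLGN, WISP1 no read against 1 to 3, WISP2 0 in all, WISP3 12 to 29, ANKRD2 0 to 2 and ANKRD23 2 to 13, and none was tested.

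To see whether other targets went with CTGF or with ANKRD1, a signature of 22 known YAP and TAZ targets was read out, 19 of them tested. The signature holds 6 of the 10 genes. Leaving these out, 14 of 16 were tested, 7 were called higher and 4 lower, with a median log2 fold change of 0.25 against -0.08 over all genes. Of all genes tested 26.7% were called higher and 39.0% lower, and 3.09% were higher past both thresholds. CCDC80, a matrix protein, passed the filter through its sh-CLGN libraries alone and so could be called in that direction only, at 0.225 ± 0.0326 FPKM in sh-NC and 1.57 ± 0.0838 FPKM in sh-CLGN. Without it 6 of 13 were called higher and 4 lower, the median was 0.17, and 3 were past both thresholds. IGFBP3, which binds insulin-like growth factors, rose 3.14-fold from 5.81 ± 0.376 to 18.2 ± 0.332 FPKM (log2 fold change 1.50, SE 0.058, limma adjusted p = 1.59e-06). MYOF, a membrane repair protein, rose 3.27-fold from 2.80 ± 0.211 to 9.15 ± 0.294 FPKM (1.42). F3, the tissue factor that starts coagulation, rose 2.67-fold from 4.09 ± 0.298 to 10.9 ± 0.216 FPKM (1.23).

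TGFB2, a growth factor, and CRIM1, a membrane protein that binds BMPs, rose 2.26-fold and 1.67-fold (0.98 and 0.69). The 4 genes called lower were FJX1 (2.99 ± 0.183 to 1.47 ± 0.265 FPKM, log2 fold change -0.70), the kinase gene NUAK2 (-0.42), NT5E (-0.29), whose product CD73 makes adenosine, and the stress response gene GADD45A (-0.23). DOCK5 rose (0.34), and PTPN14, ASAP1 and ARHGEF17 were not called, with values of 0.03, 0.03 and 0.17. These 8 genes are named because their counts were small, after their values were seen. Over the whole signature, with the genes of the 10 included, 9 were called higher and 7 lower. The lower count fell to 5 with TPM, with read totals and with quantiles, where the higher count was 10, 11 and 9. CTGF, AMOTL2 and LATS2 kept their calls, so the calls lost were among the 4 lower genes named here. FOXF2 and RBMS3 had at most 11 and 14 reads and were not tested. Thus targets were found on both sides, with CYR61 and ANKRD1 among those that rose and CTGF, AMOTL2 and LATS2 among those that fell.

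**Figure D4:**
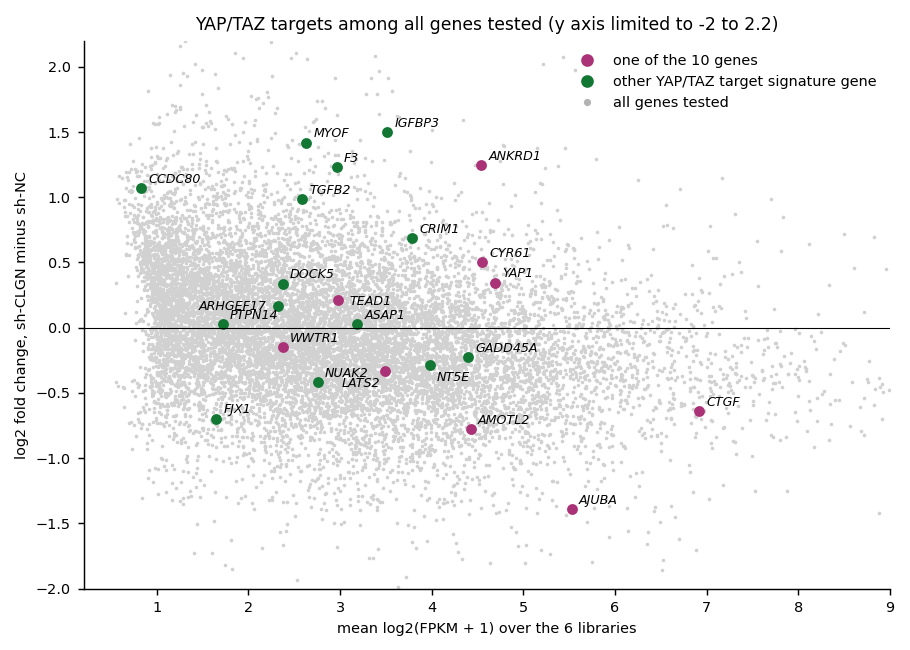
The log2 fold change of sh-CLGN against sh-NC (y axis, limited to the range shown) against the mean log2(FPKM + 1) over the 6 libraries (x axis) for all genes tested (grey), the genes of the set of 10 that were tested (purple) and the other target signature genes (green). CTGF lies far to the right and below 0 at -0.64, whereas ANKRD1, IGFBP3, MYOF, F3 and CCDC80 lie above 1.

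AXL, a receptor tyrosine kinase and YAP1 target, was the gene of the 10 that went from no read to some. Such a change is not particular to AXL. The sh-NC libraries had a read in 23578 to 23793 genes each and the sh-CLGN libraries in 26814 to 27006. AXL (chr19:41219203-41261766, plus strand) had 0 reads in each sh-NC library and 60, 50 and 35 reads in the sh-CLGN libraries, or 0.686, 0.592 and 0.421 FPKM. All 3 sh-CLGN libraries were above sh-NC, yet each was under 1 FPKM. Against a floor of 3 reads per sh-NC library, averaged over the 3, the sh-CLGN mean was at least 14.2-fold higher. With no filter on low values, limma gave AXL an adjusted p of 0.00184 over 33474 genes. AXL entered this fit through sh-CLGN alone and so could be called higher only. Of all genes in this fit 27.6% were called in either direction.

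AXL shares its ligands with TYRO3 and MERTK. MERTK rose 1.37-fold from 4.62 ± 0.293 to 6.35 ± 0.105 FPKM (log2 fold change 0.39, limma adjusted p = 0.000770). TYRO3, at 12.3 ± 0.669 and 10.9 ± 0.697 FPKM, was not called (-0.16, limma adjusted p = 0.0601), and its sign turned with read totals (0.021) and quantiles (0.00051). TYRO3 was called lower with voom on reads (-0.17) and without sh-NC replicate 3 or sh-CLGN replicate 3. AXL made up 2.27 to 3.98% of the summed FPKM of the 3 receptors in the sh-CLGN libraries, and the sum overlapped between groups, at 16.9 ± 0.393 and 17.8 ± 0.662 FPKM. Of the ligands, GAS6 had at most 1 read in any library. PROS1 fell from 56.3 ± 2.26 to 49.1 ± 0.514 FPKM (-0.19, limma adjusted p = 0.00700), but the call was lost with TPM (-0.069) and read totals (-0.0017), and the sign turned with quantiles (0.094).

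Markers of other cell types were low, and some of those of fibroblasts and smooth muscle were higher in sh-CLGN, beside AXL, CCDC80 and the other targets that rose. The sum over 8 fibroblast markers was 3.01 to 3.29 FPKM in the sh-NC libraries and 6.78 to 7.45 FPKM in the others. PDGFRB was called higher (log2 fold change 0.27). COL3A1 (0.265 to 1.67 FPKM) and LUM (0.304 to 1.75 FPKM) passed the filter through sh-CLGN alone and so could be called in that direction only, PDGFRA was under the filter, and DCN, THY1, FAP and POSTN had at most 1 read. The sum over 6 smooth muscle or stellate markers was 0.579 to 0.887 and 5.21 to 5.67 FPKM, and without CNN1 it was 0.455 to 0.697 and 1.03 to 1.18 FPKM. CNN1, an actin-binding protein that passed the filter through sh-CLGN alone, went from 5 to 8 reads in sh-NC libraries to 193 to 220 reads in sh-CLGN libraries. RGS5 had 27 to 41 and 96 to 111 reads, and MYH11 lay lower in sh-CLGN, with 25 to 33 and 19 to 24 reads. ACTA2, DES and LRAT had at most 5 reads in any library. Endothelial markers summed to 3.36 to 3.67 and 2.38 to 2.65 FPKM, and leukocyte markers to 1.20 to 1.48 and 0.471 to 0.780 FPKM. Each of these sums was mostly 1 gene. PECAM1 had means of 3.21 and 2.46 FPKM, and CD14 of 1.35 and 0.524 FPKM. CD14 passed the filter through sh-NC alone and so could be called lower only. The part of such cells in the results was not tested.

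To test how the 9 fold changes depended on scaling, filter, test and library, each was recomputed under 9 other settings and with each library left out in turn. YAP1 ranged from 0.27 to 0.60 over the settings, CYR61 from 0.50 to 0.75, ANKRD1 from 1.16 to 1.47, CTGF from -0.65 to -0.33, AMOTL2 from -0.82 to -0.54, AJUBA from -1.43 to -1.12 and LATS2 from -0.36 to -0.15. Each of these 7 kept its direction and its call in all of them. Scaling to TPM and to read totals moved the median of all genes up by 0.11 and 0.16, which the values of the 10 genes share.

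**Figure D5:**
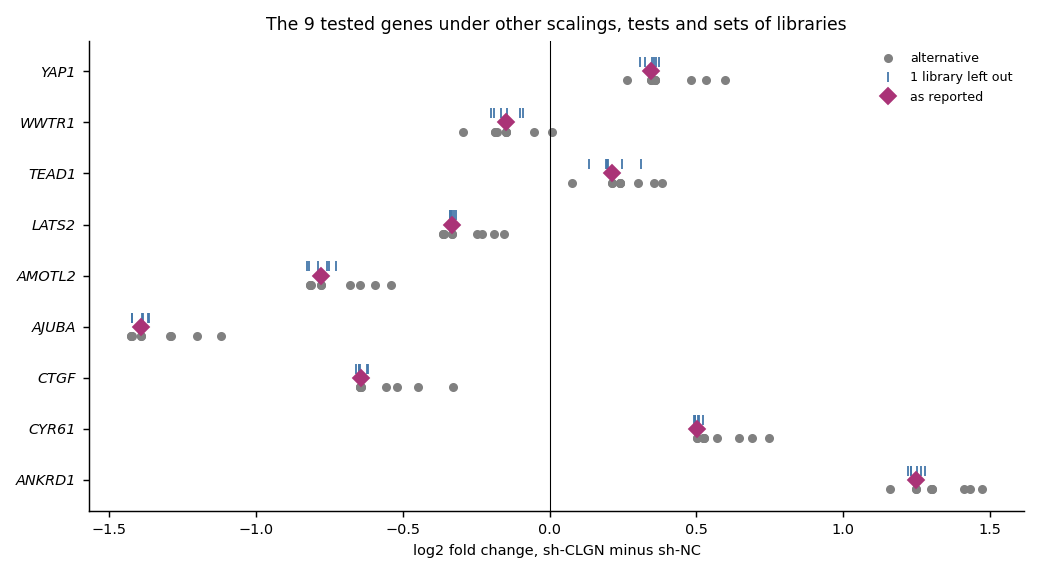
The log2 fold change of sh-CLGN against sh-NC (x axis) of the 9 tested genes (y axis) as reported (diamonds), under 9 other settings (grey points) and with 1 library left out (blue ticks). Only WWTR1 crosses 0, at 0.0090, and CTGF spreads from -0.65 to -0.33 without reaching it.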

How the data were processed

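RNA-seq libraries were made from total RNA of 3 sh-NC and 3 sh-CLGN Hep-G2 samples with a NEBNext Ultra kit, and groups were taken from the labels. The submitters' processing notes name HISAT2 2.0.5, featureCounts and GRCh38, and the strand setting is not given in the sources used here, so reads of overlapping or near-identical genes may be uncertain. Genes overlapping the 10 had at most 8 reads. The deposited values are FPKM, which the authors computed for each gene in each library from gene length and library size. FPKM times gene length gave whole reads for 100% of values (tolerance 0.01 read), and the library sizes behind the deposited values were 0.933 to 0.953 of the read totals for sh-NC libraries and 1.07 to 1.08 for sh-CLGN libraries. Positions equalled GENCODE 29. Columns named KD were matched to sh-CLGN samples by their titles.

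Genes were tested with limma 3.58.1 in R 4.3.3 (eBayes with intensity trend, two-sided, Benjamini-Hochberg) on log2(FPKM + 1), a scale that understates changes of low genes. All 6 libraries were used with no covariate. The pipeline was tested on simulated data with 200 changed genes, where depth followed the library sizes used for scaling. That test does not cover many changed genes or library sizes that differ from read totals by group, as in these data. Single ratios were compared by exact permutation tests over libraries. Floors cover counting error only. The 10 genes and all lists were chosen with earlier results of these data known. Named were the 10 genes, all TEAD, VGLL and related genes, the 6 genes of each other list with the smallest adjusted p, and signature genes past both thresholds. Alternatives were a pseudocount of 0.1, no filter, TPM, read totals, quantiles, voom on reads, removal of a GC trend, a replicate block and leaving out each library. A voom fit restricted only by 10 reads per gene was added after seeing the data.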

Additional observations from a re-analysis of the deposited data

How the results depend on the processing

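CLGN ranged from -1.49 to -1.12 over the settings and from -1.39 to -1.24 with 1 library left out. Of 36 named genes tested besides CLGN, 27 kept direction and side of the threshold under every alternative. The count of the 10 genes called higher (3) became 4 with no filter, where AXL joined. It was also 4 with TPM, read totals, quantiles, voom on reads and without sh-NC replicate 3, where TEAD1 joined. It became 5 with voom on all genes of 10 reads or more, where TEAD1 and AXL joined. AXL entered the no-filter fit and this wider voom fit through sh-CLGN alone and so could join as higher only. The count called lower (4) became 5 with the GC trend removed, where WWTR1 joined. With the wider voom fit and the GC trend removed, 51.5% and 67.1% of all genes were called in either direction. That share was 27.6% with no filter and 62.8% to 67.8% in the fits where TEAD1 alone joined. The median log2 fold change of the tested genes (-0.15) was 0.032 with no filter, -0.053 with TPM, 0.0090 with read totals, -0.19 with voom, 0.028 with that wider voom fit (which, like no filter, included AXL) and -0.25 with the GC trend removed. Leaving out 1 library gave -0.20 to -0.090. TEAD and VGLL genes called higher (0) became 1 with TPM, read totals, quantiles and both voom fits, and ranged from 0 to 1 with 1 library left out. Those called lower (3) became 2 with quantiles and 4 with the wider voom fit, where VGLL3 joined. Hippo kinases called higher (3) became 5 with TPM, 6 with read totals and 5 with quantiles. Target signature genes called lower (7) became 5 with each of these 3 scalings, and those called higher (9) became 10, 11 and 9. Signs turned for WWTR1 with read totals (0.0090), for TYRO3 with read totals (0.021) and quantiles (0.00051), for PROS1 with quantiles (0.094), and for VGLL4 with TPM (0.11), read totals (0.15), quantiles (0.031), the GC trend removed (0.079), without sh-NC replicate 1 (0.028) and without sh-CLGN replicate 1 (0.055), leaving out 1 library giving -0.059 to 0.055. The cause was not tested.

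Same-numbered libraries did not deviate together (correlations -0.02, -0.05 and -0.15), so the numbers were not taken as pairs. With the replicate block the called counts of the 10 genes stayed at 3 higher and 4 lower, and AMOTL1 (0.18) lost its call. AXL and other genes under 1 FPKM rest on few reads and were not tested in the comparison as reported.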
